A study of Mus musculus with 3 samples.

Results

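The 9 genes described here are core members of the Hedgehog pathway: the ligands Shh, Ihh and Dhh, the ligand receptor Ptch1, the decoy receptor Hhip, the signal transducer Smo, and the transcription factors Gli1, Gli2 and Gli3. They were taken by symbol from the gene list, and all 9 were among the 21005 genes with at least 1 count in the whole data set. The cells came from 3 mouse pancreatic tumours of the strain KPf/fC, referred to as tumours 1, 2 and 3. The labels give no further allele, age, sex or treatment, no Cre driver and no normal pancreas, and they do not say whether the tumours came from separate animals. Sorting had removed cells bearing CD45, CD31 or PDGFRa, the surface marks of blood, endothelial and many fibroblast cells, and the remaining cells were sequenced with the 10x Genomics 3' version 2 assay, which counts transcripts by unique molecular identifiers (UMIs). Because all samples are tumours, every comparison below is between kinds of cells within the same 3 tumours.

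Hedgehog ligands are secreted proteins that bind Ptch1 on a receiving cell. Ptch1 without ligand holds Smo inactive. Once ligand is bound, Smo is released and Gli2 and Gli3 are kept from being processed into repressors, so that target genes are transcribed. Gli1, Ptch1 and Hhip are themselves targets, which makes their transcripts the usual readout of a responding cell, and Ptch1 and Hhip in turn limit the signal. In pancreatic cancer the pathway is known for passing from epithelial cells, which make ligand, to neighbouring stromal cells.

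Cell classes were set by a pair of markers, each with at least 1 UMI in the cell. Epcam and Cdh1 marked epithelial cells, Rgs5 and Higd1b mural cells (pericytes and smooth muscle), Upk3b and Lrrn4 mesothelial cells, Dcn and Col3a1 fibroblasts, and Pecam1 and Cdh5 endothelial cells. A cell that met the rule of more than 1 class was left out, with an exception for mesothelial cells. Of the cells with both mesothelial markers, only 6, 0 and 5 in tumours 1, 2 and 3 met no other rule, while 220, 72 and 56 also met the fibroblast rule and none besides, so the mesothelial class was kept open to cells that also met the fibroblast rule. Of 18990 cells kept, 6364 were epithelial, 574 mural, 359 mesothelial, 5897 fibroblasts and 258 endothelial, and 4427 met no rule. The epithelial class held 33.0 ± 8.02% of the cells of a tumour and the fibroblast class 31.1 ± 1.02% (SD, n = 3 tumours). Tumour 2 had only 15 endothelial cells and was not used for that class in the tests.

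Tumours held 53162622 to 67262634 UMIs each. Depth was lowest in tumour 3, with a median of 6025 UMIs per barcode, against 8460.5 in tumour 1 and 9052 in tumour 2. Pairs of tumours shared 50 to 65 barcodes out of 5874 to 7615. Markers that the class rule had not used were present in the classes as named: all 8 epithelial, mural, mesothelial and endothelial check markers were in at least 20% of the cells of their own class in every tumour, as were 7 or 8 of the 8 fibroblast markers. Although the sort was against PDGFRa protein, Pdgfra transcript was found in 48.8%, 29.5% and 44.5% of fibroblasts of tumours 1, 2 and 3. The fibroblast class of tumour 2 stood apart. A UMI of Pax6, Lingo2, Cst6 or Crabp2, genes chosen from earlier results of these data for a mesenchymal population of tumour 2, was found in 54.4% of its fibroblasts, against 7.40% in tumour 1 and 2.61% in tumour 3. The summed level of 8 other fibroblast markers was 4371 CPM (counts scaled to a common library size of 1000000 UMIs) in tumour 2, against 11890 in tumour 1 and 12420 in tumour 3. The calls of members that rest on fibroblasts are therefore also given without the cells that had a UMI of those 4 genes. Most other fibroblast values, among them those of further genes, are given with these cells only.

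The promoters of the members that differed between classes are shown first, since ligand genes and target genes are read out side by side below. RefSeq (GRCm38.p6, used here for sequence only) had an entry for 7 of the 9 members, with the exceptions of Shh and Gli1. The 250 bases before the transcription start of Ihh, a ligand gene, of Ptch1, a target gene, and of Gli2, a transcription factor gene, read 5′ to 3′ on the gene's strand as follows, with capitals for the GC box GGGCGG and its reverse complement CCGCCC, the letters bound by Sp1-type factors.
Ihh, chr1:74951673-74951922, minus strand: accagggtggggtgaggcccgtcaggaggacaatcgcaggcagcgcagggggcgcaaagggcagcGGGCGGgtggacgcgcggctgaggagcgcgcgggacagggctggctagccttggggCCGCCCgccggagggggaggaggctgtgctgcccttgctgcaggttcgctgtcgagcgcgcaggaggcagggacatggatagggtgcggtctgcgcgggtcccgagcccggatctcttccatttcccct
Ptch1, chr13:63565736-63565985, minus strand: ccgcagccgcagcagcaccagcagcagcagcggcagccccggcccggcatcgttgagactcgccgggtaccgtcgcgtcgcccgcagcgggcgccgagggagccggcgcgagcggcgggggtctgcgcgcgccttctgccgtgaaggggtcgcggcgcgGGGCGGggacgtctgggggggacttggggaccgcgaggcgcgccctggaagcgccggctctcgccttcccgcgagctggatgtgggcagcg
Gli2, chr1:119053620-119053869, minus strand: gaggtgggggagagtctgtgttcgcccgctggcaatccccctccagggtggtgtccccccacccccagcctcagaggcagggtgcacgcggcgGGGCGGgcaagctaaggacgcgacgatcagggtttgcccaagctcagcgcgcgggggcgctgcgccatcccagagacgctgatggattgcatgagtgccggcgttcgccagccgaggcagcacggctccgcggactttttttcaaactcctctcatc
The GC box was found in 6 of the 7 promoters, all but that of Smo, and in 32.74% of the 32851 promoters of the same length in the table. It stood once in the Ptch1 window, 91 bases before the start, once in that of Gli2, 157 bases before it, and in both orientations in that of Ihh. The GLI consensus GACCACCCA and its reverse complement TGGGTGGTC were not found in any of the 7 windows, with or without 1 mismatch. Of all promoters in the table, 0.23% held it exactly and 5.79% with at most 1 mismatch. These letters were looked for in these windows only.

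Transcripts of the 3 ligands were found in the epithelial class and were near or at 0 in the others, with Dhh in endothelial cells as the exception. Gli1, Gli2 and Gli3 were lower in epithelial cells than in fibroblasts, mural cells and mesothelial cells, while Ptch1 and Smo differed in direction or call from class to class. Against fibroblasts, 3 of the 9 members were higher in epithelial cells and 5 lower (edgeR quasi-likelihood test on UMI counts summed per tumour and class, with tumour as a block and an adjusted p below 0.05), while 18.8% of all 14820 genes tested were called higher and 20.9% lower. The p-values rest on how much the class differences vary between these 3 tumours, with levels common to a tumour taken out by the block. That spread is estimated over all classes of the fit, with information shared across genes.

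Shh, the ligand best known from embryonic patterning, had 3.47, 7.41 and 6.10 CPM in epithelial cells of tumours 1, 2 and 3, against 0.384, 0.277 and 0.165 CPM in fibroblasts. The groups did not overlap, and tumour 1 was the lowest of the epithelial sums and the highest of the fibroblast sums. The log2 fold change was 4.26 ± 0.52 (SE; edgeR, adjusted p = 0.000114). Ihh, the ligand that acts in gut and bone, had 5.75, 6.62 and 10.4 CPM in epithelial cells, against 0.448, 0.369 and 0.0825 CPM in fibroblasts. Again no fibroblast sum reached an epithelial one, and the log2 fold change was 4.48 ± 0.53 (edgeR, adjusted p = 3.27e-05). Dhh, the ligand of testis and peripheral nerve, had 4.39, 8.93 and 3.50 CPM in epithelial cells, against 0.768, 0.924 and 0.330 CPM in fibroblasts. It was highest in tumour 2 in both classes, and its log2 fold change was 3.07 ± 0.44 (edgeR, adjusted p = 0.000107).

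The ligand counts left in fibroblasts were a small part of the epithelial level. They came to 11.1%, 3.74% and 2.71% of it for Shh in tumours 1, 2 and 3, to 7.80%, 5.58% and 0.794% for Ihh and to 17.5%, 10.3% and 9.43% for Dhh. The summed level of 8 epithelial check markers in fibroblasts was 13.8%, 9.41% and 5.86% of that in epithelial cells. The ligand shares thus lay below the marker shares in each tumour for Shh and Ihh and above them in each tumour for Dhh. The marker share depends on the class, as the same 8 markers were at 3.54%, 3.02% and 3.02% in mural cells. Shh and Ihh in fibroblasts lay above these mural shares in tumours 1 and 2 and below them in tumour 3. The source of these counts was not tested, and no ligand expression by fibroblasts is read from them.

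Few epithelial cells had a ligand UMI. With each cell thinned to 3000 UMIs, Shh was found in 1.15%, 2.63% and 1.94% of epithelial cells, against 0.164%, 0.159% and 0.0541% of fibroblasts. Before thinning the epithelial shares were 2.72%, 5.74% and 4.30%, at median depths of 10613, 8958.5 and 7729 UMIs in epithelial cells and 7322, 8952 and 4953 UMIs in fibroblasts. Any of the 3 ligands was found in 12.1%, 17.8% and 13.9% of epithelial cells of tumours 1, 2 and 3, and more than 1 ligand in 0.471%, 1.42% and 0.639%. These are shares of cells with a UMI, with no background taken off, and not shares of cells that express a ligand. Dhh before thinning, for example, was found in 4.24%, 8.23% and 2.69% of epithelial cells, against 0.657%, 0.953% and 0.183% of fibroblasts.

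Ligand UMIs were also counted together in the same epithelial cells. In thinned cells, Ihh was found in 4.55%, 12.8% and 8.93% of Shh-detected cells of tumours 1, 2 and 3, against 1.59%, 2.15% and 3.19% of Shh-undetected cells. The shares of Shh-detected cells rest on only 1, 5 and 5 cells with both ligands. Dhh was found in none of the 22, 39 and 56 Shh-detected cells, against 1.06%, 2.63% and 0.955% of Shh-undetected cells. Ihh-detected cells with a Dhh UMI numbered 0, 1 and 0. These shares were not tested, and the Shh-detected cells are too few to show that Dhh is rarer or absent in them.

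Ptch1, the receptor and target, had 8.12, 9.39 and 12.3 CPM in epithelial cells of tumours 1, 2 and 3, against 38.7, 13.6 and 98.5 CPM in fibroblasts. The groups did not overlap, but the fibroblast sums differed widely among themselves, with tumour 2 close to the epithelial range. The log2 fold change was -1.97 ± 0.37 (edgeR, adjusted p = 0.000853). Gli1, the transcription factor whose own transcript depends on the signal, had 0.176, 0.0662 and 0.433 CPM in epithelial cells, against 9.73, 2.49 and 15.9 CPM in fibroblasts. Every fibroblast sum lay above every epithelial one, and tumour 2 was again the lowest of its class. The log2 fold change was -5.27 ± 0.46 (edgeR, adjusted p = 2.72e-06). In thinned cells Gli1 was found in 0.0524%, 0.0675% and 0.0694% of epithelial cells, against 3.84%, 1.48% and 4.59% of fibroblasts.

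Gli2, the main activator of target genes, had 0.132, 0.265 and 0.157 CPM in epithelial cells, against 8.26, 4.06 and 7.59 CPM in fibroblasts. Gli3, which acts mostly as a repressor, had 0.395, 1.92 and 0.708 CPM in epithelial cells, against 19.9, 18.4 and 25.2 CPM in fibroblasts. Neither gene had overlapping groups, and Gli3 in fibroblasts varied least between tumours. Their log2 fold changes were -5.14 ± 0.56 for Gli2 (edgeR, adjusted p = 1.01e-05) and -4.52 ± 0.41 for Gli3 (edgeR, adjusted p = 1.94e-06). Hhip, which binds ligand without signalling, had 0.0439, 0.132 and 0 CPM in epithelial cells, against 0.192, 1.85 and 2.23 CPM in fibroblasts. The epithelial class held 3 Hhip UMIs in all, against 70 in fibroblasts, a ratio of 0.0334 with a 95% counting interval of 0.00673 to 0.102. Hhip was called lower in epithelial cells (edgeR, log2 fold change -4.35 ± 0.92, adjusted p = 0.00392), though not with tumour 3 left out (-3.10, adjusted p = 0.0538) and not by DESeq2 (adjusted p = 0.0729).

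Smo, the membrane protein that carries the signal inward, was present in both classes. It had 21.3, 17 and 26.8 CPM in epithelial cells, against 29.1, 18.1 and 44.9 CPM in fibroblasts. The groups overlapped, and the log2 fold change of -0.42 ± 0.20 did not pass the test (edgeR, adjusted p = 0.113). With fibroblasts that had no UMI of Pax6, Lingo2, Cst6 or Crabp2 it was -0.63 and passed (edgeR, adjusted p = 0.00467). In that setting 8 members were again called, with Smo added and Hhip not among them. The other log2 fold changes were 4.15 for Shh, 4.24 for Ihh, 3.10 for Dhh, -2.38 for Ptch1, -5.59 for Gli1, -5.51 for Gli2 and -4.54 for Gli3.

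The receiving genes in epithelial cells can also be set beside the fibroblast markers found there. The summed level of 8 fibroblast check markers in epithelial cells was 1.06%, 2.50% and 0.653% of that in fibroblasts. Gli1 in epithelial cells was at 1.80%, 2.65% and 2.72% of its fibroblast level, Gli2 at 1.59%, 6.51% and 2.07%, and Gli3 at 1.99%, 10.4% and 2.81%. These 3 also lay above the marker share in every tumour, Gli1 of tumour 2 by little. They rest on 16, 11 and 56 epithelial UMIs. Ptch1 was at 21.0%, 69.2% and 12.5% and Smo at 73.3%, 93.9% and 59.6%, well above the marker share in every tumour. The source of these counts was not tested.

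**Figure D1:**
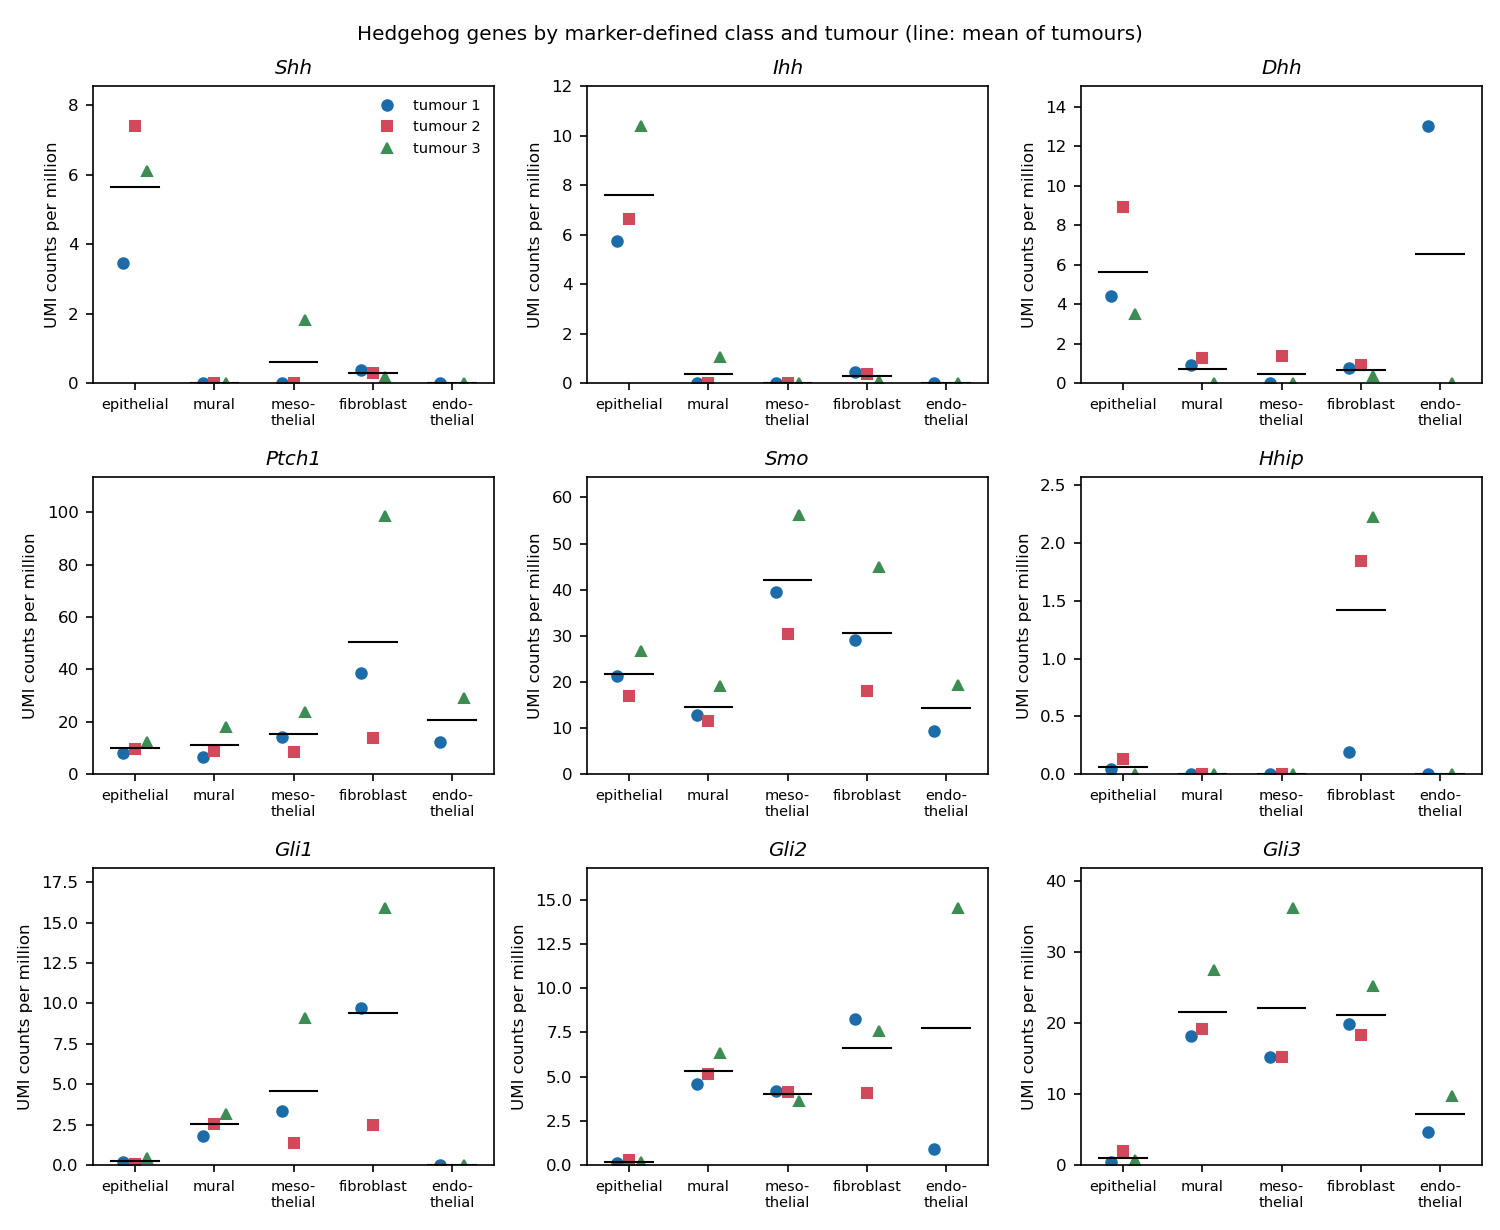
Each panel shows 1 Hedgehog gene, with CPM on the vertical axis and the marker-defined cell classes on the horizontal axis. Points are tumours, lines are means of tumours, and endothelial cells have no point for tumour 2. Shh and Ihh are high in epithelial cells only, Dhh in epithelial cells and in endothelial cells of tumour 1, and Gli1, Gli2 and Gli3 lie near 0 in epithelial cells.

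Against mural cells, the contractile cells around vessels, 4 members were higher in epithelial cells and 3 lower, where 19.4% and 15.7% of all genes were called higher and lower. This and the next comparisons use the same epithelial sums, so they are not independent of each other. Shh had no UMI in mural cells, which puts it at least 5.14-fold higher in epithelial cells, with a floor of 3 counts over the class (edgeR, adjusted p = 0.00413). Ihh had 1 mural UMI, in tumour 3, and a ratio of epithelial to mural level of 22.1 with a counting interval of 3.94 to 873.5 (edgeR, adjusted p = 0.00432). Dhh had 2 mural UMIs and a ratio of 7.22 with an interval of 1.98 to 59.9 (edgeR, adjusted p = 0.00942).

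Gli2 had 0.132, 0.265 and 0.157 CPM in epithelial cells, against 4.56, 5.13 and 6.34 CPM in mural cells. Gli3 had 0.395, 1.92 and 0.708 CPM in epithelial cells, against 18.2, 19.2 and 27.5 CPM in mural cells. Mural cells were above epithelial cells in every tumour for both, with log2 fold changes of -4.72 ± 0.75 for Gli2 (edgeR, adjusted p = 0.000292) and -4.44 ± 0.46 for Gli3 (edgeR, adjusted p = 8.3e-06). Gli1 was lower in epithelial cells as well (edgeR, -3.31 ± 0.77, adjusted p = 0.00543), from 7 mural UMIs in all. Ptch1 had 8.12, 9.39 and 12.3 CPM in epithelial cells, against 6.38, 8.97 and 17.97 CPM in mural cells. The ranges of Ptch1 overlapped, and its log2 fold change of 0.15 did not pass the test (edgeR, adjusted p = 0.856). Smo was called higher in epithelial cells (edgeR, 0.74 ± 0.26, adjusted p = 0.0399), but not with any 1 tumour left out (0.59 to 0.85, adjusted p = 0.0943 to 0.315). Dhh lost its call without tumour 2 (3.18, adjusted p = 0.0569).

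Set against fibroblasts, mural cells had less Ptch1, Gli1 and Smo, while Gli2 and Gli3 did not pass the test. Ptch1 had 6.38, 8.97 and 17.97 CPM in mural cells, against 38.7, 13.6 and 98.5 CPM in fibroblasts, and Gli1 had 1.82, 2.56 and 3.17 CPM in mural cells, against 9.73, 2.49 and 15.9 CPM in fibroblasts. In tumours 1 and 3 mural cells were well below fibroblasts for both genes, while in tumour 2 the classes were close, with Gli1 resting on 2 mural UMIs. Ptch1 (-2.12 ± 0.47, adjusted p = 0.00816), Gli1 (-1.96 ± 0.56, adjusted p = 0.0346) and Smo (-1.16 ± 0.25, adjusted p = 0.00771) were lower in mural cells, and no member was higher (edgeR, where 8.48% of all genes were called lower and 5.98% higher). Gli2 differed by -0.42 (edgeR, adjusted p = 0.695) and Gli3 by -0.08 (edgeR, adjusted p = 0.936). Without tumour 1 or without tumour 3 none of the 3 calls held (for Ptch1 -1.86, adjusted p = 0.0898, and -1.84, adjusted p = 0.114; for Gli1 -1.61, 0.287, and -1.58, 0.308; for Smo -1.10, 0.109, and -1.06, 0.0904). With fibroblasts lacking a UMI of Pax6, Lingo2, Cst6 or Crabp2, the differences were -2.39 for Ptch1, -2.29 for Gli1 and -1.30 for Smo, all called. Mural sums also carried 1974, 3114 and 2465 CPM of the 8 fibroblast check markers in tumours 1, 2 and 3, and their part in these results was not tested.

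Mesothelial cells, the lining of the organ surface, differed from epithelial cells in all but 1 of the 8 members tested, and from fibroblasts in Ptch1 only. Against mesothelial cells, 3 members were higher in epithelial cells and 4 lower of 8 tested, where 18.6% and 20.8% of all genes were called higher and lower. Ihh had no mesothelial UMI and was at least 9.51-fold higher in epithelial cells (edgeR, adjusted p = 0.00259). Shh and Dhh had 1 mesothelial UMI each, with ratios of 19.9 (counting interval 3.56 to 789.7; edgeR, adjusted p = 0.0137) and 18.7 (3.33 to 739.6; edgeR, adjusted p = 0.00357).

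Gli3 had 0.395, 1.92 and 0.708 CPM in epithelial cells, against 15.2, 15.2 and 36.3 CPM in mesothelial cells, and Smo had 21.3, 17 and 26.8 CPM in epithelial cells, against 39.6, 30.4 and 56.2 CPM in mesothelial cells. Every mesothelial sum exceeded every epithelial sum for both. The log2 fold changes were -4.62 ± 0.46 for Gli3 (edgeR, adjusted p = 2.78e-06), -1.06 ± 0.19 for Smo (edgeR, adjusted p = 0.000477), -4.30 ± 0.59 for Gli1 (edgeR, adjusted p = 7.41e-05) and -4.61 ± 0.72 for Gli2 (edgeR, adjusted p = 0.000161). Ptch1 had 8.12, 9.39 and 12.3 CPM in epithelial cells, against 14.3, 8.28 and 23.6 CPM in mesothelial cells. It did not pass the test (edgeR, -0.67 ± 0.43, adjusted p = 0.243), though it did without tumour 2 (-1.02, adjusted p = 0.0268). Without tumour 1, 4 members were called in place of 7.

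Only Ptch1 was called between mesothelial cells and fibroblasts, lower in mesothelial cells with a log2 fold change of -1.37 ± 0.41 (edgeR, adjusted p = 0.0336), where 8.1% of all genes were called lower and 8.64% higher. That call was lost without tumour 1 (-1.45, adjusted p = 0.262) or tumour 3 (-0.97, adjusted p = 0.270). Gli1 had 3.37, 1.38 and 9.07 CPM in mesothelial cells, against 9.73, 2.49 and 15.9 CPM in fibroblasts. The mesothelial value was the lower one in each tumour, but the difference of -1.03 ± 0.45 did not pass the test (edgeR, adjusted p = 0.149). With fibroblasts lacking a UMI of Pax6, Lingo2, Cst6 or Crabp2 it was -1.37 and passed (edgeR, adjusted p = 0.0241), and Ptch1 was at -1.65 (edgeR, adjusted p = 0.000687). Smo, at 0.57 ± 0.19, stood just outside the threshold (edgeR, adjusted p = 0.0523). Mesothelial sums held 2884 to 3361 CPM of the 8 fibroblast check markers, whose part in these values was not tested.

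Endothelial cells were left over from a sort against CD31 and are few. Dhh had 4.39 and 3.50 CPM in epithelial cells of tumours 1 and 3, against 13.02 and 0 CPM in endothelial cells. The 0 of tumour 3 comes from a sum of only 206127 UMIs, too few to show a direction. The difference of -0.77 ± 0.64 did not pass the test (edgeR, adjusted p = 0.439). In tumour 2, whose 15 endothelial cells were not tested, Dhh was at 10.3 CPM in a sum of only 97497 UMIs. Over tumours 1 and 3, 3 members were called higher in epithelial cells and 2 lower, where 12.6% and 10.2% of all genes were. Shh and Ihh had no endothelial UMI and were at least 2.07-fold (edgeR, adjusted p = 0.0476) and at least 3.50-fold higher (edgeR, adjusted p = 0.0252). Gli2 was called lower in epithelial cells, at -4.03 ± 1.21 (edgeR, adjusted p = 0.0290), but its endothelial level rests on 4 UMIs, 1 in a cell of tumour 1 and 3 in 1 cell of tumour 3, and its direction turned with 2 UMIs of each marker (3.88) and with no UMI of any other class marker (3.55). Gli3 was called lower at -2.67 ± 0.89 (edgeR, adjusted p = 0.0468), and Smo higher at 1.21 ± 0.36 (edgeR, adjusted p = 0.0289). Without tumour 2, 3 members were called. Leaving out tumour 1 or tumour 3 leaves 1 endothelial sum, which is then assumed to vary like the other classes, and gave 1 call and none. Gli1 had no UMI in endothelial cells, whose floor of 3 counts stands at 2.34 CPM.

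**Figure D2:**
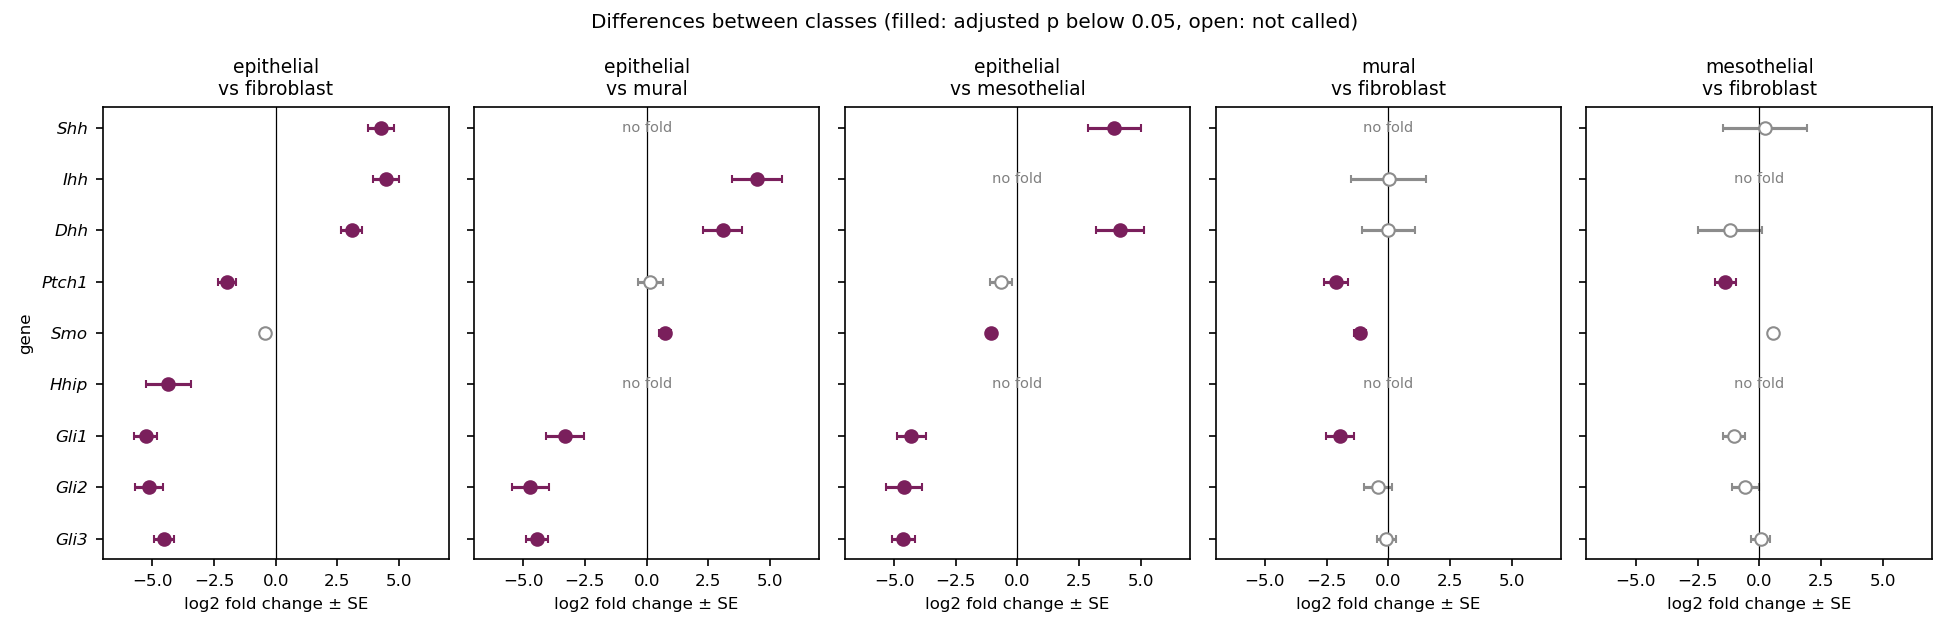
Log2 fold changes of the 9 genes between pairs of classes, first-named class over second, with SE, from the fit over all genes. Filled points passed an adjusted p of 0.05, and no point is drawn where a class had no count or the gene was not tested. The ligands lie right of 0 and Gli1, Gli2 and Gli3 left of 0 in all 3 epithelial comparisons shown.

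The wider pathway was read from 41 further genes, of which 37 could be tested in the main class fit. Between epithelial cells and fibroblasts, 3 were higher and 22 lower in epithelial cells, and the median log2 fold change of the list was -1.30, against 0.03 for all genes tested. All 5 co-receptors and ligand-binding proteins tested were lower in epithelial cells, among them Gpc3 (-5.10), a glypican that binds ligand, and the co-receptors Boc (-4.72), Gas1 (-3.72) and Cdon (-2.08). Among the 6 genes of ligand release, 4 were lower in epithelial cells, led among those with more than 3 epithelial counts by Scube1 (-5.85) and followed by Scube3 (-3.10), relatives of the secreted carriers that help ligand leave a cell surface. Of the stromal targets tested, 7 were lower and 3 higher. The lower ones included the Wnt antagonist Sfrp1 (-6.83), the growth factor Igf1 (-6.06) and the transcription factors Osr1 (-5.99) and Foxf1 (-4.83). The higher ones were the transcription factor Mycn (3.23) and the cyclins Ccnd1 (1.43) and Ccnd2 (0.98). Of the 15 transduction genes, 6 were lower and none higher, with a median of -0.22.

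In mural cells 3 of the 37 genes were higher than in fibroblasts and 7 lower, where 5.98% and 8.48% of all genes were, so that the number of higher genes is near the background. Foxf1 (2.33), the kinase subunit Prkacb (1.80) and Ccnd2 (1.49) were higher, and Sfrp1 (-7.21), Igf1 (-6.16), Cdon (-4.43), Gpc3 (-4.20) and Osr1 (-3.85) were among those lower. In mesothelial cells 7 of 30 genes tested were higher than in fibroblasts and 6 lower, where 8.64% and 8.1% of all genes were. The co-receptors Lrp2 (4.80), Gas1 (2.38), Cdon (1.34) and Gpc3 (1.27) were higher, as were Osr1 (2.75), Foxf1 (1.30) and the ligand-release protein Disp1 (1.63), while Sfrp1 (-3.60) and Ccnd1 (-1.86) were lower.

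Fibroblasts were divided by detection of Tnc, a matrix protein of activated fibroblasts, and of Pi16, a marker of adventitial-type fibroblasts. Tnc without Pi16 was found in 419, 887 and 376 cells of tumours 1, 2 and 3, Pi16 without Tnc in 595, 95 and 799, and neither in 520, 738 and 610, while 291, 169 and 398 cells with both were left out. Median depth was 8966, 10420 and 6397 UMIs in Tnc fibroblasts, 5782, 6279 and 4085 in Pi16 fibroblasts and 8429, 8630 and 4805.5 in cells with neither. A UMI of Pax6, Lingo2, Cst6 or Crabp2 was found in 13.8%, 57.4% and 3.99% of Tnc fibroblasts, against 3.19%, 15.8% and 1.63% of Pi16 fibroblasts.

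Gli1, Ptch1 and Gli2 were higher in Pi16 fibroblasts than in fibroblasts with neither marker. Gli1 had 13.02, 8.67 and 25.7 CPM in Pi16 fibroblasts, against 4.29, 1.37 and 7.96 CPM in cells with neither marker. Ptch1 had 45.3, 36.1 and 118.8 CPM in Pi16 fibroblasts, against 21.9, 9.68 and 46.6 CPM in cells with neither, and Gli2 had 11.2, 14.5 and 8.11 CPM, against 3.32, 1.99 and 3.54 CPM. Pi16 fibroblasts were above the cells with neither marker within each tumour for all 3 genes, and for Gli1 and Gli2 without overlap. Epithelial transcripts also differed between these cells: the summed level of the 8 epithelial check markers was 663.8, 316.6 and 271.7 CPM in Pi16 fibroblasts, against 2450, 1190 and 913.9 CPM in cells with neither marker. Krt8, a keratin among them, was at 180.4, 101.2 and 49.8 CPM in Pi16 fibroblasts, against 682.4, 398.3 and 198.3 CPM in cells with neither. A UMI of Pax6, Lingo2, Cst6 or Crabp2 was found in 63.7% of the cells with neither marker in tumour 2. A UMI of Upk3b or Lrrn4, the mesothelial markers, was found in 17.1%, 5.15% and 9.84% of cells with neither Pi16 nor Tnc. In Pi16 fibroblasts the shares were 2.02%, 2.11% and 0.751%. Mesothelial cells themselves held 3286, 3150 and 1937 CPM of the 8 epithelial check markers. The part of the epithelial and mesothelial transcripts in the differences was not tested. The log2 fold changes were 1.75 ± 0.28 for Gli1 (edgeR, adjusted p = 0.00674), 1.32 ± 0.26 for Ptch1 (edgeR, adjusted p = 0.0144) and 1.76 ± 0.37 for Gli2 (edgeR, adjusted p = 0.0202). These 3 of 5 members tested were called higher and none lower, where 4.98% of all 11820 genes were called higher and 5.41% lower.

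The Pi16 differences for Gli1 and Ptch1 were also found at equal depth, with each cell thinned to 3000 UMIs (1.36, adjusted p = 0.0159, and 1.15, adjusted p = 0.00917, both edgeR), while that of Gli2 was not called there (1.26, adjusted p = 0.0979). Without cells that had a UMI of Pax6, Lingo2, Cst6 or Crabp2, all 3 were called: Gli1 at 1.55 (edgeR, adjusted p = 0.00244), Ptch1 at 1.17 (edgeR, adjusted p = 0.00140) and Gli2 at 1.72 (edgeR, adjusted p = 0.00460). Among fibroblasts with a Pdgfra UMI, Ptch1 was called (1.38, adjusted p = 0.0242) and Gli1 (1.63, adjusted p = 0.0560) and Gli2 (1.62, adjusted p = 0.0606) were not (edgeR). None was called without tumour 1 (1.90, 1.48 and 1.81 for Gli1, Ptch1 and Gli2, adjusted p = 0.0816, 0.106 and 0.233), and Gli1 (1.77, adjusted p = 0.0735) and Ptch1 (1.29, adjusted p = 0.0860) were not called without tumour 3. Without the tumour block none was called.

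Against Pi16 fibroblasts, Tnc fibroblasts had less Gli1, with 9.37, 2.01 and 11.4 CPM in Tnc fibroblasts, against 13.02, 8.67 and 25.7 CPM in Pi16 fibroblasts. Tnc fibroblasts were lower within each tumour, but the groups overlapped across tumours. The log2 fold change was -1.06 ± 0.27 (edgeR, adjusted p = 0.0487), the only member called, where 3.74% of all genes were called lower and 3.44% higher. The 8 epithelial check markers summed to 1345, 772 and 435.7 CPM in Tnc fibroblasts, against 663.8, 316.6 and 271.7 CPM in Pi16 fibroblasts, and their part in the difference was not tested. This call sat at the threshold. It was lost without each tumour in turn (-0.91 to -1.43, adjusted p = 0.0809 to 0.276), in thinned cells (-0.82, adjusted p = 0.174), without cells with a UMI of Pax6, Lingo2, Cst6 or Crabp2 (-0.78, adjusted p = 0.0650) and among cells with a Pdgfra UMI (-0.51, adjusted p = 0.543).

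Ptch1 had 45.0, 11.8 and 104.6 CPM in Tnc fibroblasts, against 45.3, 36.1 and 118.8 CPM in Pi16 fibroblasts. In tumour 1 the subsets were nearly equal, and in tumour 2 they were far apart. The difference of -0.51 ± 0.25 did not pass the test (edgeR, adjusted p = 0.253). Gli3 had 20.9, 18.9 and 29.0 CPM in Tnc fibroblasts, against 24.7, 17.4 and 25.4 CPM in Pi16 fibroblasts, with no common direction (edgeR, -0.10 ± 0.16, adjusted p = 0.780). Gli2 (-0.74 ± 0.35, adjusted p = 0.242) and Smo (-0.45 ± 0.14, adjusted p = 0.0960) were not called either (edgeR). Shh, Ihh, Dhh and Hhip were too low to be tested in the subsets. The cells with both markers, which entered no test, were not low in the targets. As means of the 3 tumours, they had Ptch1 at 74.7, Gli1 at 14.5 and Gli2 at 13.2 CPM. The means of Pi16 fibroblasts were 66.75, 15.8 and 11.25 CPM.

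Between Tnc fibroblasts and cells with neither marker no member was called by edgeR, where 0.804% of all genes were called higher and 0.99% lower. Ptch1 had 45.0, 11.8 and 104.6 CPM in Tnc fibroblasts, against 21.9, 9.68 and 46.6 CPM in cells with neither. It was the higher one in Tnc fibroblasts in each tumour, by little in tumour 2. Its log2 fold change was 0.81 ± 0.24 (edgeR, unadjusted p = 0.00756, adjusted p = 0.135). The unadjusted p was 0.0356 for Gli1 and 0.0175 for Gli2 (edgeR), and DESeq2 called no member. Ptch1 was called without tumour 2 (1.07, adjusted p = 0.0142) and without cells with a UMI of Pax6, Lingo2, Cst6 or Crabp2 (0.94, adjusted p = 0.00521). Gli2 was called in that last setting too (1.19, adjusted p = 0.0373).

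**Figure D3:**
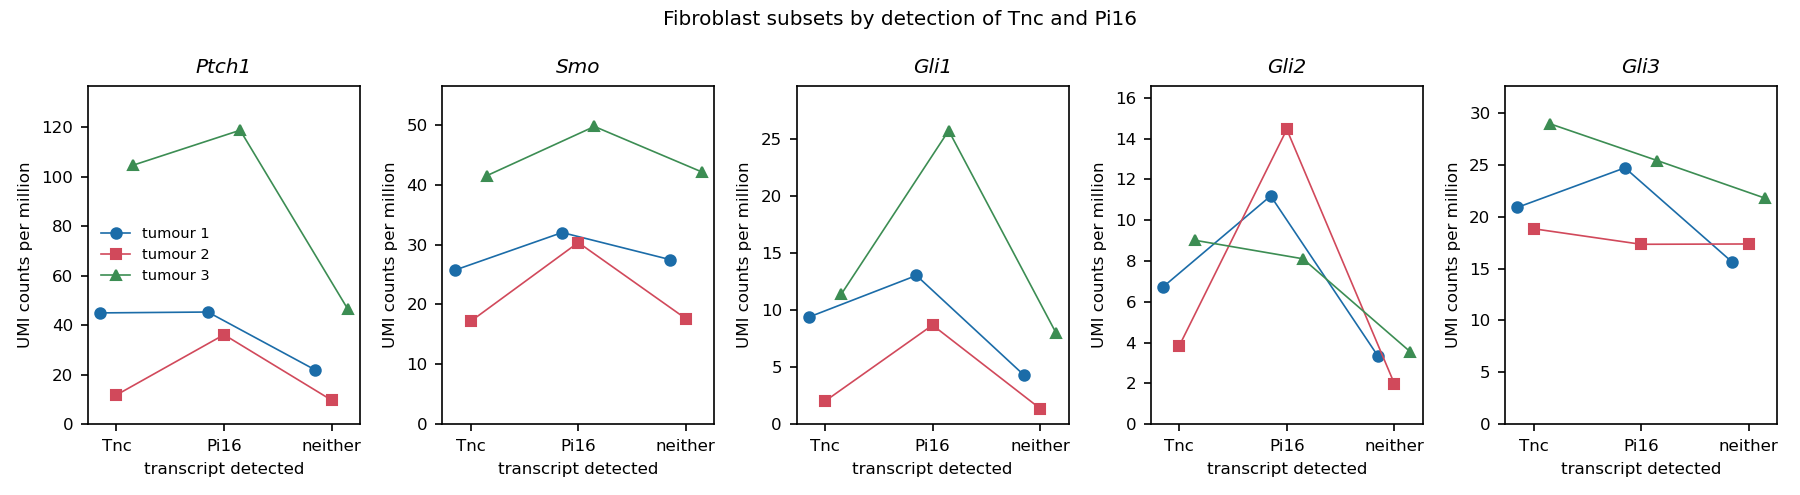
CPM of Ptch1, Smo, Gli1, Gli2 and Gli3 in fibroblasts with a Tnc UMI only, a Pi16 UMI only or neither, with 1 line per tumour. Among these 3 subsets, Gli1 and Gli2 are highest in Pi16 fibroblasts in 3 and 2 tumours. Gli2 of tumour 3 is at 9.01 in Tnc and 8.11 in Pi16 fibroblasts, and Gli3 is nearly level. Cells with both markers are not shown.

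Of 32 other pathway genes tested, 3 were higher and 4 lower in Tnc than in Pi16 fibroblasts, where 3.44% and 3.74% of all genes were. Scube1 (2.16), Ccnd2 (0.98) and Ccnd1 (0.91) were higher, and Igf1 (-2.72), Gpc3 (-1.96), Sfrp1 (-1.44) and Cdon (-1.34) lower. Pi16 fibroblasts had 5 genes above the cells with neither marker, among them Igf1 (2.31), Sfrp1 (1.92), Gpc3 (1.64) and Cdon (1.03), and 1 below, Ccnd1 (-1.53), where 4.98% and 5.41% of all genes were called higher and lower.

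Fibroblasts with a UMI of Pax6, Lingo2, Cst6 or Crabp2 had less of the targets than fibroblasts without one. Gli1 had 1.88, 0.330 and 9.06 CPM in the cells with such a UMI, in tumours 1, 2 and 3, against 10.6, 7.56 and 16.3 CPM in those without. Ptch1 had 16.9, 6.33 and 47.1 CPM with, against 41.2, 30.5 and 101 CPM without. Both were lower in each tumour in the cells with a UMI of the 4 genes. Gli2 had 7.50, 1.71 and 1.81 CPM with, against 8.35, 9.56 and 7.87 CPM without. Gli3 had 13.8, 18.9 and 18.1 CPM with, against 20.6, 17.3 and 25.6 CPM without, and in tumour 2, where 1028 cells had such a UMI and 861 had none, it was about as high in both. Hhip in tumour 2 went the other way, with 2.31 CPM with and 0.771 CPM without. The cells with such a UMI numbered only 135 in tumour 1 and 57 in tumour 3 and were deeper, at a median of 10058, 12860.5 and 8384 UMIs, against 7125, 7012 and 4905 without. No test was made, since the split was chosen from these data.

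**Figure D4:**
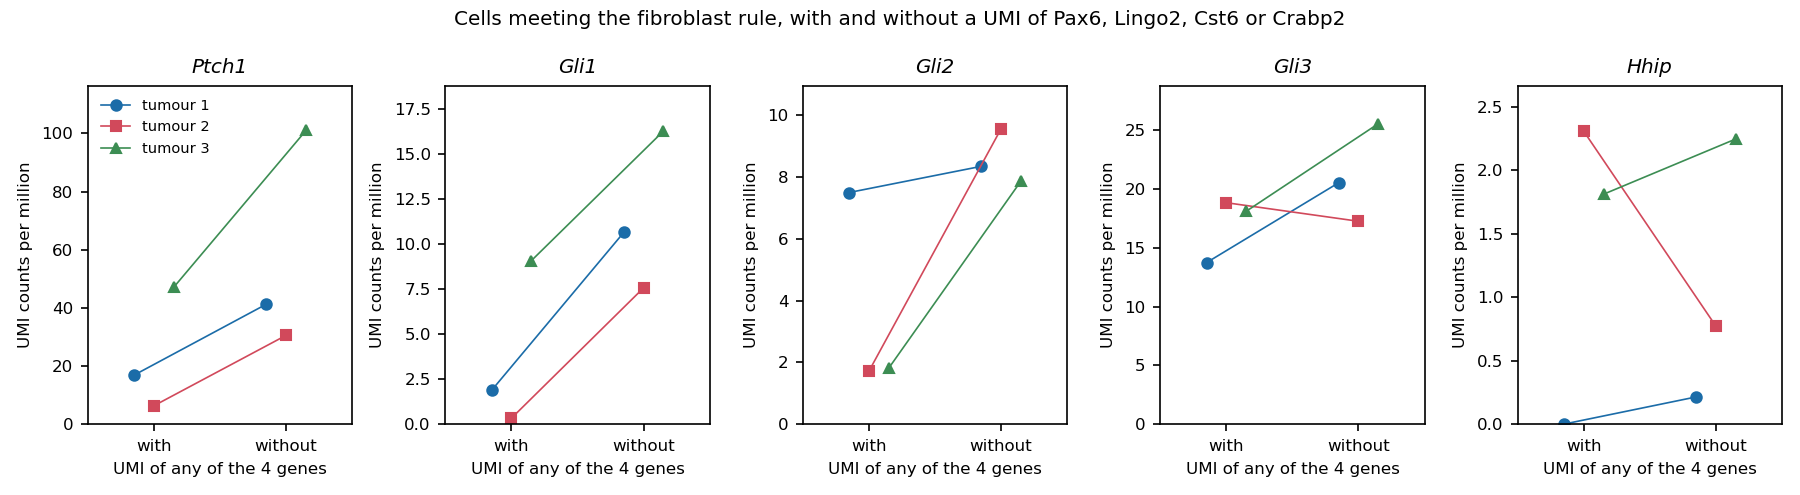
CPM of Ptch1, Gli1, Gli2, Gli3 and Hhip in fibroblasts with and without a UMI of Pax6, Lingo2, Cst6 or Crabp2, with 1 line per tumour. Ptch1, Gli1 and Gli2 are lower with such a UMI in every tumour, while Gli3 and Hhip of tumour 2 are higher.

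Within fibroblasts, cells with a Gli1 UMI after thinning to 3000 UMIs were compared with cells without one, in 70, 28 and 85 cells against 1755, 1861 and 1765. Ptch1 was found in 17.1%, 28.6% and 34.1% of Gli1-detected fibroblasts of tumours 1, 2 and 3, against 10.0%, 4.89% and 21.4% of Gli1-undetected ones. The share was the higher one in each tumour. Ptch1 was called higher in the detected cells (edgeR, 0.92 ± 0.27, adjusted p = 0.0420), the only member called of 4 tested, where 0.321% of all genes were called higher and 0.925% lower. The call was lost without each tumour in turn (0.58 to 1.38, adjusted p = 0.108 to 0.469) and without cells with a UMI of Pax6, Lingo2, Cst6 or Crabp2 (0.76, adjusted p = 0.166).

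Genes with the largest rise in Gli1-detected fibroblasts included Tmem132c (1.75), the secreted protein Fgl2 (1.48), the protease Adamts10 (1.48), the ephrin receptors Epha4 (1.23) and Epha3 (1.13), the imprinted gene Peg3 (1.23), the surface marker Thy1 (1.18), the growth factor Gas6 (1.18), the bone morphogenetic protein family member Gdf10 (1.17) and the heparin-binding growth factor Ptn (1.08). Gas6, for example, was at 1882 CPM in detected and 877 CPM in undetected cells. Those with the largest fall included the chemokine Cxcl13, with 7.29 CPM in detected cells and 222 CPM in undetected cells, and Cfd, a complement protease of fat cells. Serpinb2 had no UMI in detected cells and was at least 4.78-fold lower. Ccnd1 was the only further pathway gene called, lower in detected cells (edgeR, -1.28, adjusted p = 0.0379).

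Cells with a ligand UMI were compared with the other epithelial cells in the same way, in 22, 39 and 56 Shh-detected cells. No member was called, where 0.633% of all genes were called higher and 1.27% lower. Ihh stood at 1.66 ± 0.64 (edgeR, unadjusted p = 0.00931, adjusted p = 0.221), and DESeq2 called no member either. The 10 genes with the largest rise were led by Bcas1 (2.90) and Cwh43 (2.14). The trefoil factor Tff1 (2.12) was at 14400 CPM in Shh-detected and 3011 CPM in Shh-undetected cells, the gastrokine Gkn1 (1.70) at 2088 and 487 CPM, and Psca (2.04), a surface protein of gastric epithelium, at 239 and 56.2 CPM. Among the 10 with the largest fall were the transcription factor Sox11 (17.1 CPM in detected and 151 CPM in undetected cells), the gut hormone Pyy (11.4 and 208 CPM), the actin-bundling protein Fscn1 and the activin subunit Inhba. Fscn1 and Inhba had no UMI in the few Shh-detected cells, against 505 and 415 UMIs in Shh-undetected cells. The floor of 3 counts puts them at least 3.20-fold and at least 2.63-fold lower, for counting error only. Both passed the filter on low counts through the undetected cells alone. How many cells held their UMIs was not tested, so the zeros alone do not establish a fall. Ccnd1 was also lower (edgeR, -1.23, adjusted p = 0.000883).

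Ihh-detected cells numbered 31, 36 and 95. No member was called here either, where 0.438% of all genes were called higher and 1.22% lower, and Shh stood at 1.94 ± 0.62 (edgeR, adjusted p = 0.0835). The unadjusted p of Shh was 0.0016 (edgeR), and DESeq2 called no member. The genes with the largest rise were the endodermal transcription factor Sox17 (1.75), Scamp5 (1.59), Prap1 (1.55), and the mucosal genes Aqp5 (1.38), Duox2 (1.35), Duoxa2 (1.24) and Pgc (1.35), the last encoding a gastric proenzyme. Tff1 was at 5973 CPM in Ihh-detected and 3151 CPM in Ihh-undetected cells. Tff1 was the one gene among the 10 largest rises of both splits. Pthlh, a hormone-like factor that acts with Ihh in cartilage, had no UMI in Ihh-detected cells, against 300 in Ihh-undetected cells. The floor of 3 counts puts it at least 2.65-fold lower, for counting error only. It passed the filter on low counts through the undetected cells alone, and how many cells held its UMIs was not tested. Ccnd2 was higher (edgeR, 0.65, adjusted p = 0.0161).

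The authors' deposited table gives a log2 fold change per gene for each of 19 clusters of their own; what each cluster was compared with is not stated in it. In the authors' deposited table, Shh was highest in cluster 1 (2.43), cluster 8 (2.24) and cluster 7 (1.87), and these clusters also had the highest Ihh values (2.49 in cluster 1, 1.97 in cluster 7 and 1.59 in cluster 8). Dhh in the authors' deposited table was below 0 in all 3 of those clusters and highest in cluster 3 (2.18) and cluster 14 (1.83), followed by cluster 18 (1.79), the cluster with the highest Pecam1 (8.80). The ligand genes thus fell into different clusters there, with Shh and Ihh highest in the same 3 and Dhh in others. Ihh was also above 0 in cluster 13 of the authors' deposited table (1.02), where Shh was at -0.111. Gli1 in the authors' deposited table was highest in cluster 2 (3.43), cluster 11 (2.60) and cluster 4 (2.40), which were the 3 clusters with the highest Pi16 values (3.45, 4.43 and 1.87). Clusters 4 and 2 also had the highest Tnc values in the authors' deposited table (3.48 and 1.40), while cluster 11 was at -2.20. Ptch1 was highest in cluster 2 (3.01 in the authors' deposited table). Hhip was highest in cluster 10 (2.61) and cluster 6 (2.24), ahead of cluster 2 (1.90), and these were the clusters with the highest Pax6 in the authors' deposited table (2.62 in cluster 10 and 3.63 in cluster 6).

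**Figure D5:**
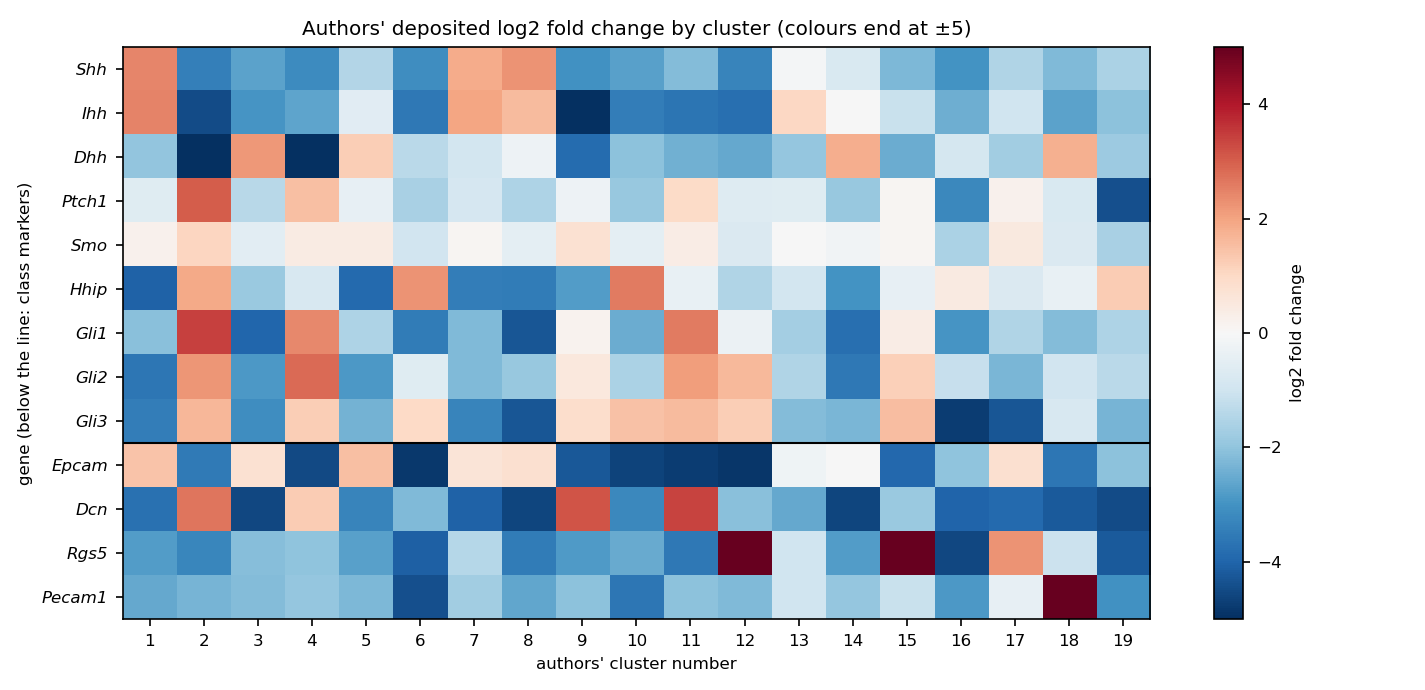
Colours show the authors' deposited log2 fold change of the 9 Hedgehog genes (above the line) and of marker genes (below it) in each of their 19 clusters, with colours ending at ±5. Shh and Ihh are red in clusters 1, 7 and 8, and Ihh also in cluster 13. Dhh is red in clusters 3, 5, 14 and 18, Gli1 most in clusters 2, 4 and 11 and Hhip most in clusters 6 and 10.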

How the data were processed

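The data are raw UMI counts per gene and barcode for 3 tumours in 1 matrix, deposited by the authors, and a deposited table of the authors' log2 fold changes per cluster. Per the submitters' processing notes, tools included Cell Ranger 2.1.1 and Seurat 3.0. A genome build and gene annotation are not given there. Per the labels, the end of each barcode names its tumour. The members and gene lists were chosen with earlier results of these data known.

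Of 19576 barcodes, those with under 500 genes or over 20% mitochondrial UMIs were dropped, as were 74, 94 and 144 Scrublet doublets (Scanpy 1.11.5) of tumours 1, 2 and 3, which left 18990 cells. Counts were summed per tumour and class (at least 20 cells) and tested with edgeR 4.0.16 (TMM factors, filterByExpr, quasi-likelihood F test, Benjamini-Hochberg adjustment over all genes tested), with tumour as a block, since the sums compared come from the same tumours. The 5 classes shared 1 fit, in which the 10 class markers, Pi16 and Tnc stayed in library sizes and out of the tests. The mesothelial class open to the fibroblast rule, and its tests, were added after the data were seen, because the exclusive class had too few cells. The 3 fibroblast subsets shared another fit. Cells detected and undetected for a gene were split after thinning each cell to 3000 UMIs, with shallower cells left out (91 epithelial cells and 333 fibroblasts of tumour 3). CPM values are counts divided by the sum's total and scaled to 1000000, without TMM factors. Intervals are exact 95% intervals, floors are 3 counts over a class, and both cover counting error only. Of further pathway genes, those called with the largest change are named, at most 10 a comparison. For detected cells the 10 largest rises and 10 largest falls called with the same sign in every tumour were considered. The tests were tried on simulated counts, where a 4-fold change was recovered in 90.8% of the genes changed between epithelial cells and fibroblasts, 99% between subsets and 51.5% between Shh-detected and Shh-undetected cells, and a 2-fold change in 39.8%, 61.2% and 15.1%. The simulated counts had no tumour effect and no difference between groups beyond the genes changed, so these shares need not hold for the real counts. Alternatives included DESeq2 1.42.0, other class rules, thinning and leaving out each tumour. Values of 1 further pathway gene are not reported here.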

Additional observations from a re-analysis of the deposited data

Results flagged for a closer look

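Among the cells that met no class rule, Hhip was at 2.69 CPM (66 UMIs) in tumour 2, while tumours 1 and 3 had none. This value lay above the epithelial level of tumour 2 (0.132 CPM) as well as its fibroblast level (1.85 CPM). Hhip was the only member considered for this list, so its listing does not set it apart from the other members. These cells enter no comparison, and the value is listed because it lies in data outside the main measurement. Of the 66 UMIs, 59 were in cells with a UMI of Pax6, Lingo2, Cst6 or Crabp2, where Hhip was at 3.26 CPM. Tumour 2 had 1335 such cells among those of no class, against 40 in tumour 1 and 45 in tumour 3. In the same cells of tumour 2 Gli3 was at 17.2 CPM and Gli1 at 0.166 CPM.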

How the results depend on the processing

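The 45 fold changes were each recomputed under up to 16 alternative settings, 653 values in all, of which 541 kept their direction and side of the threshold, 87 fell short of it, 18 newly passed and 7 changed sign. The 8 calls between epithelial cells and fibroblasts numbered 7 to 8 with a tumour left out and 6 to 9 under all other settings. With a tumour left out the calls were 5 to 6 of 7 for epithelial against mural, 0 to 3 of 5 against endothelial and 4 to 7 of 7 against mesothelial cells, 0 to 3 of 3 for mural against fibroblast, 0 to 1 of 1 for mesothelial against fibroblast, 0 to 0 of 1 for Tnc against Pi16, 0 to 1 against none for Tnc against neither marker, 0 to 3 of 3 for Pi16 against neither, and 0 to 0 of 1 for Gli1-detected fibroblasts.

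Other settings that moved a count follow. For epithelial against mural cells 4 were called with cells kept in every class whose rule they met, and 0 in cells with no UMI of any other class marker, where only 1 mural sum was left and Gli2 (3.54), Gli1 (4.32) and Gli3 (5.39) changed sign. That setting left no mesothelial class. It gave 0 calls and Gli2 at 3.55 for epithelial against endothelial cells and 0 calls for mural against fibroblast. Against endothelial cells, 2 UMIs of each marker gave 1 call (Gli2 at 3.88), the DESeq2 test 3, thinning 0 and no replicate block 3, and the Dhh difference ran from -1.24 to 8.12 with a tumour left out, changing sign without tumour 1. Without the replicate block 0 were called for mural and for mesothelial against fibroblast, for both Tnc and Pi16 contrasts that had calls, and for Gli1-detected cells. Thinning gave 2 against mesothelial cells. For mesothelial against fibroblast it gave 0, and DESeq2, doublets kept, no barcode filter and both stricter fibroblast rules (10 UMIs of each marker, or no UMI of the 4 genes) gave 2. For Tnc against Pi16, 2 UMIs, thinning, both fibroblast rules, Pdgfra-positive cells and a fit of the 2 groups alone gave 0, and thinned Smo was at 0.08. For Tnc against neither, thinning, 10 UMIs, no filter on low counts and the 2-group fit gave 1, and no UMI of the 4 genes gave 2. Pdgfra-positive cells gave 1 for Pi16 against neither. For Gli1-detected cells DESeq2, both fibroblast rules and no filter on low counts gave 0. The cause was not tested.

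Over all genes, calls ranged from 3673 to 6913 for epithelial against fibroblast (5889 in the design used), 876 to 5705 against mural (5211), 799 to 3970 against endothelial (3392), 2522 to 5223 against mesothelial (4572), 336 to 2832 for mural against fibroblast (2143), 719 to 2524 for mesothelial against fibroblast (1943), 0 to 1368 for Tnc against Pi16 (849), 0 to 1003 for Tnc against neither (212), 0 to 1794 for Pi16 against neither (1228), and 0 to 515, 0 to 341 and 0 to 145 for Shh-, Ihh- and Gli1-detected cells (186, 163 and 132). With DESeq2 size factors the split of higher to lower calls in those last 3 was 85 to 96, 64 to 85 and 52 to 85, in place of 62 to 124, 43 to 120 and 34 to 98. The median log2 fold change of all genes lay over 0.1 from 0 in epithelial against endothelial (0.26) and mural cells (0.16), mural (-0.14) and mesothelial (-0.11) against fibroblast, and Shh- and Ihh-detected cells (-0.17 and -0.12). Depth limits Shh, Ihh, Dhh, Gli1 and Hhip outside their main class to few UMIs.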

Other observations

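Over the 11 class sums, the genes whose log2(CPM + 1) followed Shh most closely among 14819 genes were Fgfbp1 (Pearson r = 0.990), which releases growth factors from matrix, the claudin Cldn9 (0.989), the mucin Muc20 (0.986), Ildr1 (0.983) and Gpr160 (0.983). Those closest to Ihh were Ccdc64b (0.996), the epithelial transcription factors Ovol2 (0.987) and Ovol1 (0.986), the sulfotransferase Sult1b1 (0.982) and Ap1m2 (0.979), an adaptor subunit of epithelial sorting. Those closest to Gli1 were the transcription factor Osr2 (0.990), Larp6 (0.979), which binds collagen transcripts, the sodium channel Scn7a (0.975), Prtn3 (0.967) and the Wnt antagonist Frzb (0.964). The sums share tumours and libraries, and these values describe likeness only.

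Pyy, a gut hormone gene, and Mcpt8, a basophil protease gene, were among the 10 largest falls in Shh-detected, Ihh-detected and Gli1-detected cells alike. Pyy had 4, 2 and 0 UMIs in the detected cells of the 3 splits, against 3835, 3837 and 697 in the undetected cells. Mcpt8 had 0, 4 and 0 UMIs in the detected cells, against 2265, 2261 and 345 in the undetected cells. The Shh and Ihh splits divide the same epithelial cells, so they are not independent of each other. The detected groups are small, and how many cells held these UMIs was not tested.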
